A study of Zea mays with 4 samples.

Results

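Maize leaves eaten by larvae of the fall armyworm, *Spodoptera frugiperda*, for 1 day were compared with unfed leaves for their microRNAs. The fed library, T1, came from leaves of plants at the 4-leaf stage after 1 day of feeding. Its matched unfed library, CK1, has the same title number and leaf stage, and CK3 is the other unfed library. The labels of CK1 and CK3 give the tissue and no treatment, so that they are unfed is read from the missing treatment. The labels do not say when these leaves were taken, whether they were wounded or handled otherwise, which maize line was used or how many plants a library holds. Another library, T3, from leaves after 3 days of feeding, is quoted for a few entries. The values are the authors' normalized values, 1 per microRNA sequence, and each group has 1 value column here. The library preparation in the labels covers more libraries than there are samples here, so a column may pool several. A column is called a library below, and the differences are sizes between single columns, with no test and no replicate check. The compared entries are the distinct sequences with a normalized value of at least 10 in T1 or CK1, each under its maize (zma) name where it had one, and they number 165 of 319 in the table.

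A plant microRNA is cut by a Dicer-like enzyme, mostly DCL1, from the stem of a folded precursor RNA, as a pair of strands from the 5′ and the 3′ arm (5p and 3p). One strand is usually kept by an Argonaute protein, mostly AGO1, and guides the cutting or silencing of messenger RNAs to which it pairs closely. Most plant microRNAs are 21 nt long, while 24 nt is the usual length of small RNAs that direct DNA methylation. Many conserved families target transcription factors of growth and leaf development. Others act on auxin signalling, on copper proteins or on nutrient uptake.

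The sequences on which the results turn come from the deposited table, which writes T for U and gives no genome positions. They are printed 5′ to 3′ with the seed, bases 2 to 8, in capitals. The first 4 are the most abundant members, which have names of the wheat family miR9774 and weigh heavily in the shares by length and by arm. The next 2 are NAC regulators of the miR164 family, of which miR164e was about 2-fold or more above both unfed libraries and miR164a was not. The miR159a pair has the largest difference in arm balance between T1 and CK1 among precursors listed above 0 in all 3 libraries. The miR397b sequence is of the laccase regulator with the largest difference from CK1 among the members at 1000 or more. The next 3 are entries at least 2-fold above both unfed libraries, and the last 2 are entries at least 2-fold below both.
tae-MIR9774-p5_2ss4AG21GT: aCAGGATAttgggtatttctt
tae-MIR9774-p3_2ss4AG21GT: aCAGGATAttgggtatttcttt
tae-MIR9774-p3_2ss5AG22GT_1: aACAGGATattgggtatttctt
tae-MIR9774-p3_2ss5AG22GT_2: aACAGGATattgggtatttcttt
zma-miR164a-5p: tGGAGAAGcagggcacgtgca
zma-miR164e-5p: tGGAGAAGcaggacacgtgag
zma-miR159a-5p: gAGCTCCTatcattccaatga
zma-miR159a-3p: tTTGGATTgaagggagctctg
zma-MIR397b-p5: tTGAGCGCagcgttgatgagc
osa-MIR5079a-p3_2ss1AT21CT: tTTTGAGAaccccttgaacgtct
osa-MIR6256-p5_2ss10GC17TA: tAGGTGTAgctggtgtat
vvi-MIR3630-p5_2ss18AT19CT: gGGAATCTctctgatgctt
gma-MIR6300-p3_1ss15AG: tGTAGTATagtggtgagtattccc
gma-MIR5368-p3_2ss1AT18CA: tGAGATACcactctggaag
Counted from the 5′ end, miR164e differs from miR164a by G13A, C20A and A21G, all outside the seed. The suffixes are the authors': L and R give bases added or removed at the left and right end, and ss gives substitutions relative to the named microRNA.

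Of the 165 members, 83 had maize names, 72 had names of other plants and 10 were predicted (PC names). The values within a library were mostly whole multiples of a step, which was taken as the worth of 1 read, 0.303 units in T1, 0.736 in CK1 and 0.826 in CK3. The listed entries then stood for 209054 reads in T1, 87014 in CK1 and 90834 in CK3, so T1 was 2.40 times as deep as CK1. Nearly all values above 0 corresponded to at least 5 reads, which is 1.51 units in T1, 3.68 in CK1 and 4.13 in CK3, and an entry listed at 0 can have been present below that level. Members listed above 0 numbered 162 in T1, 156 in CK1 and 142 in CK3. CK3 had no part in choosing the members, and 23 of them were listed at 0 there, beside 3 in T1 and 9 in CK1. Just inside the minimum stood zma-miR156i-3p and bdi-miR156b-5p_R+2, at 10.3 in T1, and just outside it gma-miR6300_R+4, at 9.99 in T1 and 8.09 in CK1.

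Most members had similar levels in fed and unfed leaves, and the differences lay among low values. On the log2(value + 1) scale, 26 members, or 15.8% of the 165, stood in T1 at 2-fold or more of their CK1 level, 17 (10.3%) were lower by as much, and 122 were between these limits, so 26.1% passed in either direction. Scaled by the median of ratios the counts were 28 and 12 over the same members, and 32 and 12 where the minimum was applied again after scaling. The median log2 difference of all members was -0.12 as deposited and 0.09 under that scaling. Of the 12 members at 1000 or more in either library none passed 2-fold, and of the 34 between 100 and 1000 only 1 did, gma-MIR5368-p3_2ss1AT18CA, a sequence with a soybean name. The log2 differences between T1 and CK1 had an SD across members of 0.34 at 1000 or more, 0.44 between 100 and 1000, and 1.45 below 100.

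The second unfed library showed how far the unfed libraries themselves lay apart. Against CK3, 39 of the same members (23.6%) passed 2-fold upwards in T1 and 18 (10.9%) downwards, 34.5% together. CK3 passed 2-fold above CK1 in 30 members (18.2%) and below it in 43 (26.1%), 44.2% together, so the unfed pair was 2-fold apart at more members than T1 was from either. The unfed pair was also the shallower, with 87014 implied reads in CK1 and 90834 in CK3 beside 209054 in T1. The part of depth in these counts was not tested. The downward calls against CK3 were mostly of names that may belong to fragments of other RNAs, namely miR4995, miR5072, miR5077, miR5368, miR6173, miR6300, miR6478 and miR8175, a list chosen after the values were seen and not checked for origin. Over the 139 members without those names, 37 passed above CK3 and 3 below it, 21 passed above CK1 and 14 below it, and CK3 passed above CK1 in 13 and below it in 43. Because CK3 had no part in choosing the members, upward calls against it are favoured, and 22 of the 139 were listed at 0 there. Each pair was also compared over its own entries at the minimum. Of 178 entries for T1 over CK3, 16.3% were higher and 25.8% lower, 42.1% together, and of 187 entries for CK3 over CK1, 28.9% were higher and 22.5% lower, 51.3% together. Of the 26 members above CK1, 7 passed 2-fold above CK3 as well and 3 passed below it. Of the 17 members below CK1, 3 passed 2-fold below CK3 as well and 7 passed above it. The T1 value lay between the values of CK1 and CK3, or equal to one of them, in 88 members, above both in 44 and below both in 33. Both comparisons share T1, so they are not independent of one another.

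**Figure D1:**
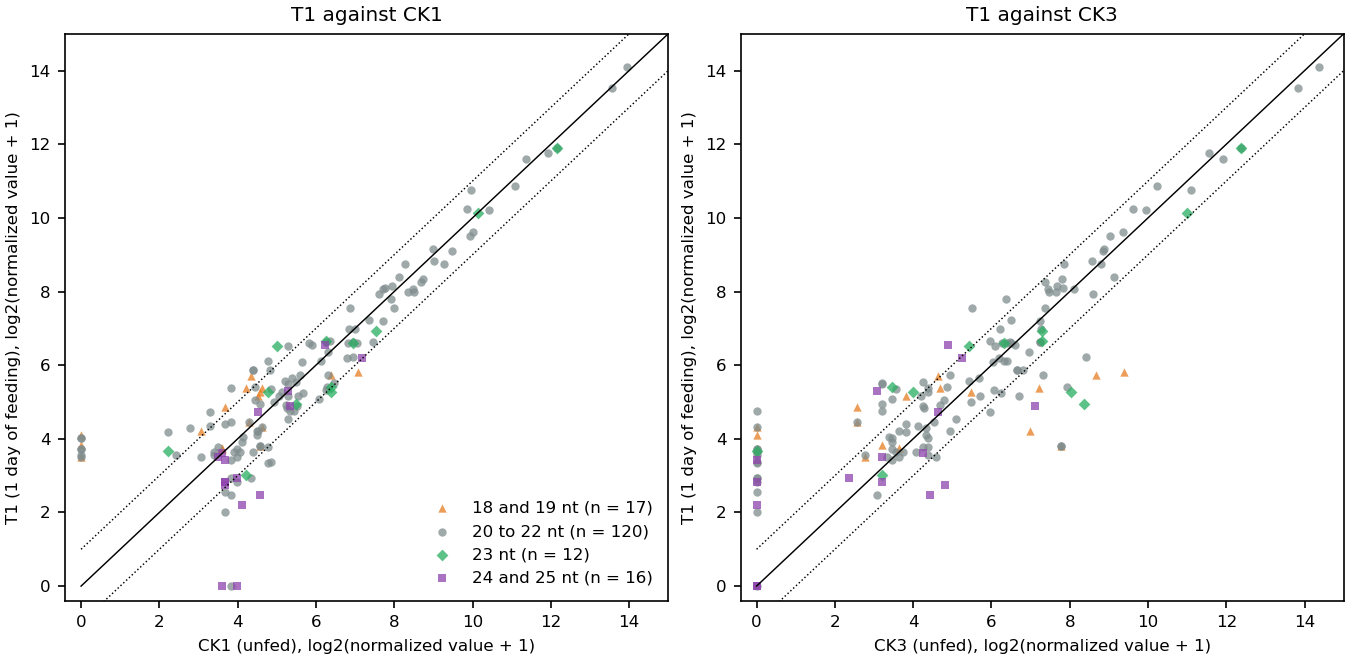
Each point is 1 of the 165 members, with log2(normalized value + 1) in T1 on the vertical axis and in CK1 (left) or CK3 (right) on the horizontal axis; the solid line marks equal values and the dotted lines a 2-fold difference. Members of high value lie inside the dotted lines on the left, with 26 members at or above and 17 at or below them, and the spread is wider on the right.

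By length, the leaf microRNAs of both conditions were mostly 21 nt long. The 71 members of 21 nt made up 60.8% of the summed normalized values in T1, 58.1% in CK1 and 54.1% in CK3. The 31 members of 22 nt made up 27.3% in T1, 28.7% in CK1 and 29.9% in CK3, and the 12 of 23 nt made up 8.80% in T1, 10.01% in CK1 and 11.4% in CK3. The T1 share was thus the highest of the 3 libraries at 21 nt and the lowest at 22 and 23 nt. The gap between T1 and CK1 at 21 nt rested on the miR9774 entries, while that between T1 and CK3 remained without them. Without the 8 members of that family the 21-nt share was 83.93% in T1, 83.87% in CK1 and 73.7% in CK3, so T1 and CK1 differed by 0.05 percentage points and the order of the libraries was the same. Without the possible fragment names, and with miR9774 kept, it was 61.5% in T1, 58.8% in CK1 and 56.4% in CK3. The share with both sets left out was not tabulated, so the gap to CK3 and the order may rest on them together.

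The 4 leading miR9774 sequences shown above are nested in one another or differ by 1 base at an end. The 21-nt form stood at 17449 in T1, 15820 in CK1 and 21283 in CK3, a log2 difference of 0.14 to CK1 and -0.29 to CK3. The 22-nt form that extends it by 1 base stood at 11781 in T1, 12110 in CK1 and 14678 in CK3. The 22- and 23-nt forms that begin 1 base earlier have equal values in every library, 3823 in T1, 4588 in CK1 and 5353 in CK3, and they may be 1 measurement listed under both sequences. The family held 61.1% of the members' summed values in T1, 60.6% in CK1 and 66.2% in CK3. Within the family the 21-nt form made up 45.5% in T1, 40.9% in CK1 and 43.3% in CK3.

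The 18-nt members lay mostly above CK1 and the 24-nt members mostly below it. All 8 members of 18 nt had names of other plants, 4 of them passed 2-fold above CK1 and none passed below it, and their median log2 difference was 0.89, beside -0.12 for all members. The 4 that passed, beside 15.8% of all members, were osa-miR5072_L-4, aly-MIR4226-p5_2ss13AC18TG, osa-MIR6256-p5_2ss10GC17TA and ath-MIR166c-p5_2ss6TG17AC. The first 2 of these were listed at 0 in CK1, so they were members through T1 alone, which favours upward calls. Against CK3, 4 of the 8 passed upwards and 1 downwards, beside 23.6% and 10.9% of all members, with a median of 0.89 again, beside 0.26 for all members. Of the 4 upwards, 2 were listed at 0 in CK3. T1 lay above both unfed libraries in 6 of these 8. Together they made up 0.38% of the summed values in T1, 0.28% in CK1 and 0.66% in CK3, so the summed level in T1 was above CK1 and below CK3. Most of the CK3 sum was gma-MIR5368-p3_1ss17CA, at 52.7 in T1, 82.4 in CK1 and 406 in CK3. The names miR5368, miR5072, miR5077 and miR8175, held by 4 of the 8, are among these possible fragment names.

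Of the 13 members of 24 nt, none passed 2-fold above CK1 in T1 and 5 passed below it, beside 15.8% and 10.3% of all members, with a median of -0.86. All 5 were under 10 in T1 and so were members through CK1 alone, which favours downward calls, and 2 of them were listed at 0 in T1. Against CK3 the direction was the other way, since 4 passed upwards and 1 downwards, beside 23.6% and 10.9%, and the median was 0.29. CK3 itself was 2-fold or more below CK1 in 8 of the 13 and above it in none, and 5 of the 13 were listed at 0 in CK3. Predicted sequences made up 7 of the 13. Of the 13, gma-MIR6300-p3_1ss15AG alone was 2-fold or more below both unfed libraries, at 4.54 in T1, 2.11 in T3, 22.8 in CK1 and 20.6 in CK3. The 24-nt members held 0.40% of the summed values in T1, 0.59% in CK1 and 0.20% in CK3.

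**Figure D2:**
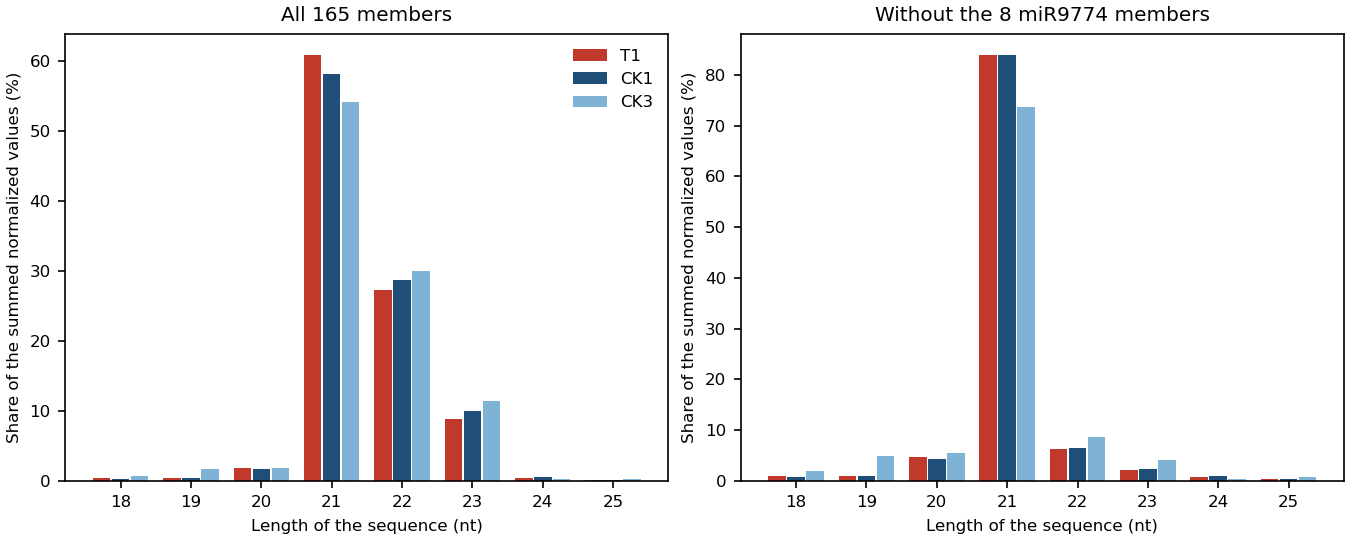
Share of the members' summed normalized values (%) by sequence length in T1, CK1 and CK3, for all 165 members (left) and without the 8 miR9774 members (right), each bar being 1 library. At 21 nt T1 has 60.8%, CK1 58.1% and CK3 54.1% on the left, while on the right T1 and CK1 are level at 83.9% and CK3 is at 73.7%.

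By arm, the 3p and 5p members had like medians against CK1. Names gave the 3p arm for 69 members, the 5p arm for 61, both arms for 7 sequences listed under each, and no arm for 28. The median log2 difference between T1 and CK1 was -0.18 for the 3p and -0.18 for the 5p members, and against CK3 it was 0.27 for the 3p and 0.11 for the 5p members. Of the 3p members 8 passed 2-fold above CK1 and 6 below it, and of the 5p members 10 passed above and 9 below, beside 15.8% and 10.3% of all members. Against CK3, 18 of the 3p members passed above and 10 below, and 10 of the 5p members passed above and 3 below, beside 23.6% and 10.9%. Without the possible fragment names described above, the counts against CK3 were 18 above and 1 below of 60 for 3p, and 10 above and 1 below of 56 for 5p. The arms were not tested against one another. Among maize names alone, 5 of 36 3p members were higher and 3 lower, and 4 of 41 5p members were higher and 5 lower. Against CK3, 8 of the 36 were higher and 1 lower, and 9 of the 41 were higher and none lower.

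Summed values gave the 5p arm 42.9% in T1, 39.7% in CK1 and 40.8% in CK3, and the 3p arm 46.0% in T1, 49.4% in CK1 and 47.6% in CK3. Part of this contrast came from miR9774, whose 21-nt form is named p5 while the nested 22-nt form is named p3. Without miR9774 the 5p arm had 38.8% in T1, 37.7% in CK1 and 35.8% in CK3, and the 3p arm had 37.4% in T1, 39.7% in CK1 and 38.1% in CK3.

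Of the 7 sequences named from both arms, 5 passed 2-fold above CK1, beside 15.8% of all members, and 5 passed 2-fold above CK3, beside 23.6%. None passed downwards against either. At 2-fold or more above both stood 3 of them, namely osa-MIR5079a-p3_2ss1AT21CT, osa-MIR6256-p5_2ss10GC17TA and vvi-MIR3630-p5_2ss18AT19CT. The 7 sequences summed to 278 in T1, 141 in CK1 and 109 in CK3. Their names belong to other plants and each name carries substitutions, and which maize RNA they come from was not examined.

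The balance of the arms within a precursor was mostly stable. It could be read for 13 maize precursor names with both arms at 10 or more in T1 or CK1. In 10 of them the log2 difference of 3p over 5p moved by less than 2-fold between T1 and CK1, by -0.46 to 0.52. Under the precursor name miR168a, from the family that targets AGO1, the 5p arm stayed ahead. It had 1187 (5p) and 281 (3p) in T1, 1365 and 247 in CK1, and 979 and 202 in CK3. The 3p entry named for miR168b was not counted there, at 3444 in T1, 3889 in CK1 and 3005 in CK3. That entry exceeded the 5p value in each library, and whether the 5p sequence also comes from miR168b was not examined. The precursor miR166a, of the HD-ZIP III regulators, kept its 3p arm ahead, with 32.1 (5p) and 1208 (3p) in T1, 20.6 and 932 in CK1, and 26.4 and 778 in CK3. In miR528a, of a family that targets copper proteins, the balance was -3.86 in T1, -4.07 in CK1 and -4.01 in CK3.

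The other 3 balances differed by 2-fold or more between T1 and CK1. In miR159a, whose 3p strand targets GAMYB-type factors, the 5p arm stood at 18.5 in T1, 5.89 in CK1 and 18.99 in CK3, and the 3p arm at 253 in T1, 327 in CK1 and 175 in CK3. The balance was thus 3.71 in T1, 5.57 in CK1 and 3.14 in CK3, and T1 lay closer to CK3. In miR169i, of the nuclear factor Y regulators, the 5p arm stood at 15.4 in T1, 16.7 in CK1 and 9.36 in CK3. Its 3p arm stood at 27.3 in T1, 8.83 in CK1 and 15.7 in CK3. The balance was 0.79 in T1, -0.85 in CK1 and 0.69 in CK3, so the 3p arm led in T1 and CK3 and the 5p arm in CK1. These values are low, and the 3p sum includes zma-miR169i-3p_R+2, at 12.1 in T1 and listed at 0 in CK1. In miR156j, of the SPL regulators, the 3p arm was at 10.9 in T1 and listed at 0 in CK1 and CK3, and the 5p arm was at 44.2 in T1, 38.3 in CK1 and 8.26 in CK3. Against CK3, 2 of the 13 balances differed by at least 2-fold, those of miR156j and of miR398a. In miR398a the balance was 2.79 in T1, 2.94 in CK1 and 4.13 in CK3. Between the unfed libraries 5 of the 13 balances differed by at least 2-fold.

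**Figure D3:**
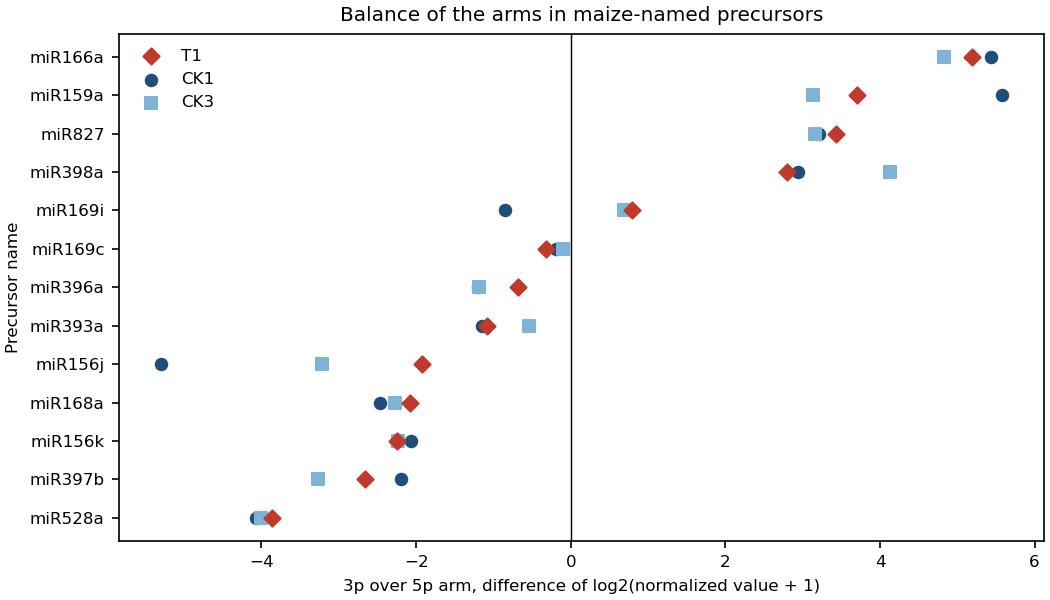
Balance of the arms, as the difference of log2(normalized value + 1) of 3p over 5p, for 13 maize precursor names in T1, CK1 and CK3; each point is 1 library and values right of 0 mean that the 3p arm was higher. T1 stands within 1 log2 unit of CK1 in 10 precursors, and apart from it for miR159a, miR169i and miR156j.

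Summed by maize family and as deposited, the abundant conserved microRNAs were within 2-fold of both unfed libraries after 1 day of feeding. Of 26 families with a total of at least 10 in T1 or CK1, 1 (3.85%) passed 2-fold upwards and 1 (3.85%) downwards, 7.69% together, and both were listed at 0 in T1 or CK1. Among families at the minimum in each pair, 15.4% were higher and 3.85% lower in T1 over CK3, 19.2% together, and 7.69% were higher and 23.1% lower in CK3 over CK1, 30.8% together. miR1432 was at 15.1 in T1, at 0 in CK1 and at 19.8 in CK3, and miR11970 was at 0 in T1, at 13.2 in CK1 and at 0 in CK3. Of the 19 families at 100 or more, none was 2-fold apart from CK1 or from CK3, and T1 lay between the unfed values in 14 and above both in 5. The 5 were miR166, miR169, miR393, miR396 and miR398. The log2 differences of these 19 families ran from -0.59 to 0.78 against CK1 and from -0.47 to 0.89 against CK3, and in 14 the sign depended on which unfed library was used. These values are as deposited. At equal totals or by median of ratios, 5 families in place of 4 passed 2-fold above CK3. The added family was miR160, at 0.89 as deposited.

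**Figure D4:**
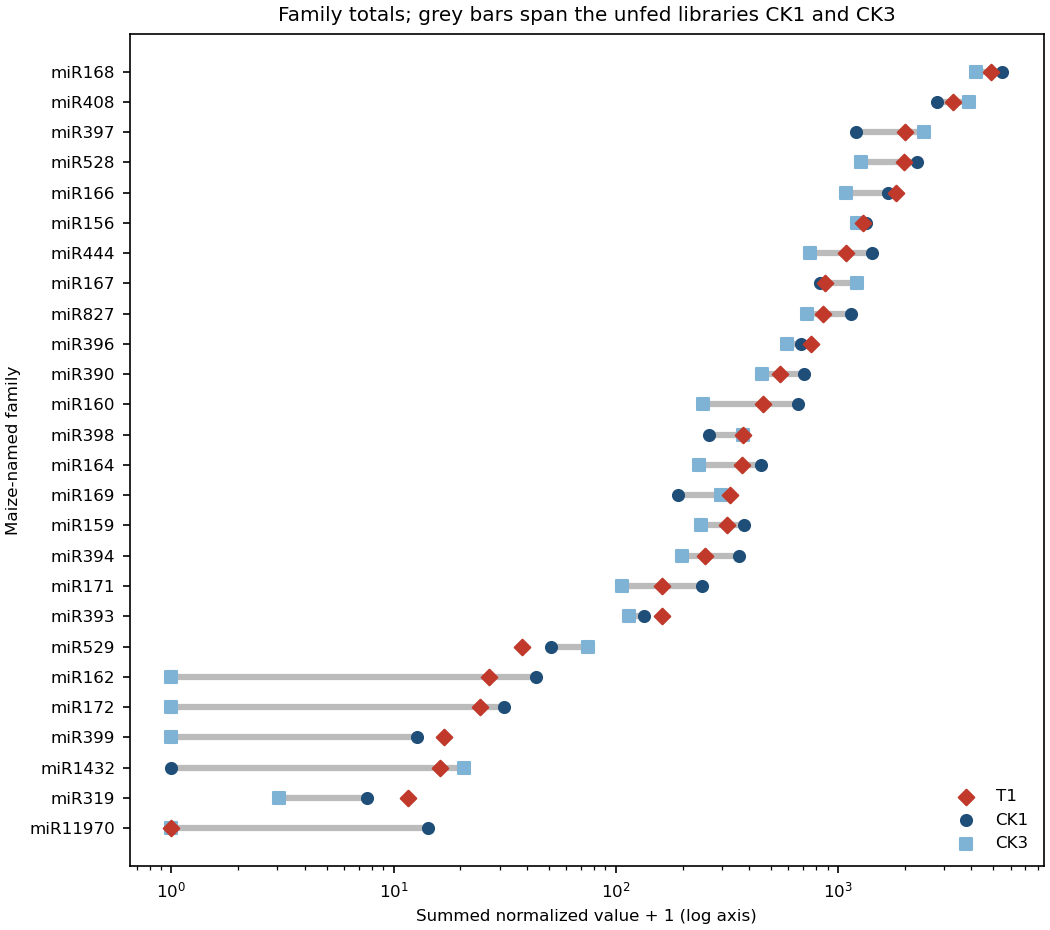
Summed normalized value + 1 (log axis) of 26 maize-named families in T1 (diamonds), CK1 (circles) and CK3 (squares), each point being 1 library; grey bars span the unfed pair. The T1 diamond lies on the grey bar for 14 of the 19 families at 100 or more, and to the right of it for miR166, miR169, miR393, miR396 and, by a small margin, miR398.

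Among the regulators of copper proteins and laccases, miR397, miR398 and miR408 were above CK1 and miR528 was below it. miR397, which targets laccases of lignin formation, was at 2008 in T1, 1202 in CK1 and 2438 in CK3. Its log2 difference was 0.74 to CK1 and -0.28 to CK3. Most of it was zma-MIR397b-p5, at 1734 in T1, 988 in CK1 and 2210 in CK3. Its partner zma-MIR397b-p3 was at 274 in T1, 215 in CK1 and 228 in CK3, above both unfed libraries. miR398, which targets Cu/Zn superoxide dismutases, summed to 371.8 in T1, 263 in CK1 and 371.6 in CK3, and its member zma-miR398b-5p_R-1 was at 67.8 in T1, 26.5 in CK1 and 79.3 in CK3. miR408, which targets plantacyanins and laccases, was at 3306 in T1, 2784 in CK1 and 3889 in CK3. Its log2 difference to CK3 was -0.23, which became positive at equal totals. Within that family zma-MIR408a-p5 was at 187 in T1, 116 in CK1 and 44.6 in CK3. miR528 was at 1984 in T1, 2284 in CK1 and 1274 in CK3, with a log2 difference of -0.20 to CK1 that became positive under median-of-ratios scaling. Of the 10 members of these 4 families 1 passed 2-fold above CK1 and 1 below it, beside 15.8% and 10.3% of all members. Against CK3, 3 passed above and none below, beside 23.6% and 10.9%. The median log2 difference of the 10 was 0.34 to CK1 and 0.45 to CK3, beside -0.12 and 0.26 for all members.

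Among the regulators of leaf phase and growth, miR169 differed most from CK1 and not from CK3. This family targets subunit A of nuclear factor Y. It was at 325 in T1, 189 in CK1 and 296 in CK3, with log2 differences of 0.78 and 0.13. Of its 10 members 4 passed 2-fold above CK1, 1 passed below it, beside 15.8% and 10.3% of all members, and none was 2-fold apart from CK3, beside 34.5%. The largest difference among members listed in all 3 libraries was that of zma-MIR169a-p3, at 17.3 in T1, 3.68 in CK1 and 13.2 in CK3. The ratio of T1 to CK1 was 4.69, with a 95% counting interval of 1.90 to 14.99 from the implied reads. The entry was named for this difference, and its CK1 value is the level of 5 reads. The members zma-miR169m-3p_L+1 and zma-miR169i-3p_R+2 were at 15.1 and 12.1 in T1, listed at 0 in CK1, and at 9.91 each in CK3. zma-miR169f-5p_R+2 went the other way, at 7.17 in T1, 17.7 in CK1 and 8.26 in CK3.

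miR166, which targets HD-ZIP III factors of leaf polarity, was at 1829 in T1, 1675 in CK1 and 1092 in CK3, and most of it was zma-miR166a-3p, at 1208 in T1, 932 in CK1 and 778 in CK3. miR396, which targets growth-regulating factors, was at 759 in T1, 685 in CK1 and 589 in CK3. miR156, which targets SPL factors and marks the juvenile phase, was at 1301 in T1, 1335 in CK1 and 1224 in CK3. Its log2 difference to CK1, -0.04, was the nearest to 0 among the 19 families and was positive under median-of-ratios scaling. miR529, which targets SPL factors as well, was at 36.9 in T1, 50.04 in CK1 and 74.3 in CK3. It was the sole family of the 26 below both unfed libraries, and its log2 difference to CK3 was -0.99. miR172, which targets AP2-like factors, was at 23.6 in T1, 30.5 in CK1 and listed at 0 in CK3.

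miR164, which targets NAC factors, split by member. The family was at 368 in T1, 453 in CK1 and 236 in CK3. Its main member zma-miR164a-5p was at 267 in T1, 354 in CK1 and 173 in CK3, and zma-miR164f-5p was at 28.7 in T1, 44.4 in CK1 and 18.2 in CK3. Both were thus between the unfed values. zma-miR164e-5p was at 40.6 in T1, 55.6 in T3, 13.2 in CK1 and 19.8 in CK3. Its ratio was 3.06 to CK1, with a counting interval of 1.87 to 5.33, and 2.05 to CK3, with one of 1.32 to 3.31. On the log2(value + 1) scale the differences were 1.54 and 0.998, the second just under 2-fold. miR159 was at 317 in T1, 375 in CK1 and 242 in CK3. miR171, which targets GRAS factors, was at 161 in T1, 244 in CK1 and 105 in CK3. miR319, which targets TCP factors, was at 10.6 in T1, 6.62 in CK1 and 2.06 in CK3, and it had no single member at the minimum. Of the 45 maize-named members of these families 7 passed 2-fold above CK1 and 3 below it, beside 15.8% and 10.3% of all members. Above CK3 passed 11 and below it none, beside 23.6% and 10.9%. The upward counts are near the share over all members. The median was 0.08 to CK1 and 0.36 to CK3, beside -0.12 and 0.26 for all members.

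Among the regulators of auxin signalling, miR160 and miR390 were below CK1 and above CK3. miR160, which targets auxin response factors, was at 459 in T1, 663 in CK1 and 247 in CK3, the largest gap between unfed libraries among the abundant families. miR167, which also targets auxin response factors, was at 877 in T1, 828 in CK1 and 1216 in CK3. miR390, which acts through the TAS3 RNA, was at 547 in T1, 706 in CK1 and 457 in CK3. miR393, which targets the TIR1/AFB auxin receptors, was at 161 in T1, 133 in CK1 and 114 in CK3. Its log2 difference was 0.27 to CK1 and 0.50 to CK3, and all 3 members were within 2-fold. Of 15 members of these families none passed 2-fold above CK1 and 2 passed below it, namely zma-MIR160e-p3 and zma-miR167f-3p, beside 15.8% and 10.3% of all members. Against CK3, 2 passed above and 1 below, beside 23.6% and 10.9%. The members zma-MIR160e-p3 and zma-miR167f-3p stood at 3.03 and 6.06 in T1, 11.8 and 14.7 in CK1, and both were listed at 0 in CK3.

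The families that act on the small RNA machinery were between the unfed libraries. miR168 was at 4912 in T1, 5501 in CK1 and 4186 in CK3. Its log2 difference to CK1, -0.16, became positive under median-of-ratios scaling. Its members zma-miR168b-3p_R+1 and zma-miR168a-5p were at 3444 and 1187 in T1, 3889 and 1365 in CK1, and 3005 and 979 in CK3. miR162, which targets DCL1, was at 26.0 in T1, 42.7 in CK1 and listed at 0 in CK3.

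Of the families of nutrient signalling, miR827 and miR444 were below CK1 and above CK3. miR827, which targets SPX-domain proteins of phosphate homeostasis, was at 857 in T1, 1141 in CK1 and 728 in CK3. miR444, known in grasses for targeting MADS-box factors, was at 1088 in T1, 1420 in CK1 and 751 in CK3. The phosphate starvation family miR399 was at 15.9 in T1, 11.8 in CK1 and listed at 0 in CK3. Of 6 members none passed 2-fold above CK1 and 1 passed below it, zma-miR399f-5p, beside 15.8% and 10.3% of all members. Against CK3, 2 passed above and none below, beside 23.6% and 10.9%. miR394, which targets an F-box protein, was at 250 in T1, 360 in CK1 and 198 in CK3. Among the phasiRNA triggers, miR2118 was under the minimum, at 6.66 in T1, 7.36 in CK1 and 14.9 in CK3, and miR2275 was at 3.03 in T1 and listed at 0 in both unfed libraries.

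Few members stood 2-fold or more apart from both unfed libraries in the same direction. All 7 higher ones were under 100 in T1, and 6 of them had names of other plants. osa-MIR5079a-p3_2ss1AT21CT was at 90.2 in T1, 67.2 in T3, 30.9 in CK1 and 42.1 in CK3. Its ratio to CK1 was 2.92, with a counting interval of 2.11 to 4.13. The miR5079 member with the seed TTGAGAA was at 91.1 in T1, 38.3 in CK1 and 67.7 in CK3, within 2-fold of CK3. Other miR5079 members lay near CK1. osa-MIR5079a-p3_2ss4CT21AT was at 11.5 in T1, 9.57 in CK1 and 10.7 in CK3. osa-MIR5079a-p3_2ss2CT19AT, listed under 2 lengths with equal values, was at 20.9 in T1, 18.4 in CK1 and 4.95 in CK3. osa-MIR6256-p5_2ss10GC17TA was at 51.5 in T1, 60.6 in T3, 19.1 in CK1 and 23.9 in CK3. vvi-MIR3630-p5_2ss18AT19CT was at 28.2 in T1, 24.6 in T3, 11.8 in CK1 and 4.95 in CK3. In osa-MIR5079a-p3_2ss1AT21CT, osa-MIR6256-p5_2ss10GC17TA and vvi-MIR3630-p5_2ss18AT19CT both fed libraries were above both unfed ones. osa-miR5082_R-1_1ss1TC was at 11.8 in T1, 3.68 in CK1 and listed at 0 in CK3. The other 3 were listed at 0 in both unfed libraries, namely osa-miR5072_L-4 at 16.3 in T1, sbi-MIR169o-p3_2ss3CA18GT at 12.1 and the maize-named zma-miR156j-3p_L-1 at 10.9. In T3 they were at 15.5, 16.2 and 4.93.

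The 3 members lower than both unfed libraries have the soybean names miR5368, miR4995 and miR6300, all among the possible fragments of other RNAs, as is miR5072 among the higher ones. gma-MIR5368-p3_2ss1AT18CA was at 55.1 in T1, 174 in T3, 135 in CK1 and 671 in CK3. gma-miR4995_L-2R+4 was at 37.5 in T1, 83.1 in T3, 82.4 in CK1 and 263 in CK3. T1 was the lowest of these libraries in both. T3 was above CK1 in both, by a small margin in gma-miR4995_L-2R+4, and below CK3 in both. In both, CK3 was more than 2-fold above CK1, so the unfed libraries were themselves far apart. gma-MIR6300-p3_1ss15AG, described above, had close values in CK1 and CK3 and a ratio of T1 to CK1 of 0.199, with a counting interval of 0.0999 to 0.380. Other miR6300 members did not all go the same way. The 3 with the seed TCGTTGT summed to 59.9 in T1, 43.4 in CK1 and 81.8 in CK3, above CK1. gma-miR6300_L-1R+8 was lower, at 5.75 in T1, 11.8 in CK1 and 27.3 in CK3.

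Other members with large differences from CK1 were not 2-fold apart from both unfed libraries in the same direction. zma-miR159a-5p, at 18.5 in T1 and 5.89 in CK1, was at 18.99 in CK3. aof-miR408_R+1_2ss19GT20CT was at 25.4 in T1, 8.83 in CK1 and 61.1 in CK3. gma-MIR5368-p5_1ss7TC, listed as a 20-nt and a 22-nt sequence with equal values, was at 57.8 in T1, 19.9 in CK1 and 99.1 in CK3. On the lower side, zma-miR171d-5p was at 4.54 in T1, 13.2 in CK1 and 7.43 in CK3, below both but within 2-fold of CK3. tae-miR167c-5p_1ss22CT was at 12.7 in T1, 26.5 in CK1 and 18.2 in CK3. PC-3p-12223_82 was at 6.66 in T1, 14.7 in CK1 and 4.13 in CK3. tae-miR9774_L+2_2ss21TC23TG was at 71.8 in T1, 144 in CK1 and 37.2 in CK3, with a log2 difference to CK1 of -0.997, just short of 2-fold.

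Members listed at 0 in CK1 numbered 9, at 10.3 to 16.3 in T1. Besides those named above they were zma-miR1432-5p_L-1R+1, aly-MIR4226-p5_2ss13AC18TG, bdi-miR156b-5p_R+2 and osa-MIR2118k-p5_2ss5GA19TG, and all of these 4 were above 0 in CK3. In CK1 such values would be only a few times the level of 5 reads, 3.68. Members listed at 0 in T1 numbered 3. They were zma-MIR11970-p3_1ss16AG, at 13.2 in CK1, PC-5p-40256_19, at 11.04 in CK1, and PC-5p-59745_10, at 14.7 in CK1. CK3 listed each of them at 0 as well.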

How the data were processed

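The labels' protocols give Trizol extraction of total RNA, TruSeq Small RNA libraries and Illumina HiSeq sequencing. Per the file headers, the authors deposited normalized signal, 1 value per library and microRNA sequence. Their scaling is not stated, whether a column pools several of the libraries prepared is not stated, and no aligner, microRNA caller or genome build is given in the sources used here. The 500 rows held 319 sequences. Rows of a sequence had equal values, and each sequence was used once, under its first maize name or else its first name. Differences are log2(value + 1), which understates folds of low entries. A difference was called at 2-fold, with at least 10 in either library. With 1 library a group no test was made and no count model was used, since only 90.4% to 93.8% of values were whole multiples of the step, within 0.02 of a read. Implied reads gave 95% exact (Clopper-Pearson) intervals of ratios, which cover counting error alone, since reads with no molecular identifiers are not separate molecules. Entries named for a large difference were chosen on the same values, so their intervals are no test of it. Arms were read from names, and a family total summed all its maize-named sequences, which can share reads. Calls and steps were tried on simulated data with changes placed only in entries of higher value, so calls among low values were not covered. Entries were named by rule: the 5 highest, the 8 largest differences each way among members above 0 in T1, CK1 and CK3, those 2-fold from both unfed libraries, and those listed at 0 in T1 or CK1. The members, the lists of families by target and the names of possible fragments were chosen with earlier results of these data known. Alternatives were other controls, pseudocounts, minimums, scalings, merged sequences and subsets of names. Tools were Python 3.11.15, numpy 2.4.6, pandas 2.3.3, SciPy 1.17.1 and matplotlib 3.10.9.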

Additional observations from a re-analysis of the deposited data

How the results depend on the processing

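Counts of members higher and lower than CK1 were 26 and 17. They were 29 and 46 with CK3 as the control and 15 and 27 with the mean of CK1 and CK3. They were 105 and 32 with no minimum value, 7 and 2 at a minimum of 50, and 9 and 8 with maize names only. Members above 0 in both libraries gave 17 and 14. A pseudocount of 5 gave 20 and 11, and one of 0.5 gave 27 and 19. Scaling to equal totals gave 27 and 16, and median of ratios 32 and 12. Merging nested sequences of equal values left 25 and 17, the smallest listed value in place of 0 left 26 and 17, and leaving out the possible fragment names, an alternative chosen after the values were seen, left 21 and 14. Families, with 1 higher and 1 lower, were 4 and 1 against CK3, 2 and 0 against the mean, 2 and 1 with no minimum, 0 and 0 at a minimum of 50 or above 0 in both, and 8 and 1 with all plant names. The 21-nt share, 2.68 percentage points higher in T1 than in CK1, was higher by 0.0518 points without miR9774, 2.14 with merged sequences and 6.72 against CK3. The 5p share of both arms, higher by 3.75 points, was higher by 2.13 without miR9774, by 3.34 with merged sequences and by 2.14 against CK3. The families above 0 in both and the shares against CK3 were also alternatives chosen after seeing the data. The cause of these shifts was not tested beyond the subsets named. No paired analysis was possible because each group has 1 value column, and for the same reason none could be left out in turn. At this depth values under about 5 reads are listed at 0, so small differences among low entries were not detectable.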

Other observations

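Members were also counted by how their names fit the sequence. Of 50 members whose names carry no change, 4 passed 2-fold above CK1 and 5 below it, and 8 passed above CK3 and none below it. Over all members 15.8% passed above CK1, 10.3% below CK1, 23.6% above CK3 and 10.9% below CK3. Of 56 members whose names carry substitutions, 14 passed above CK1 and 4 below it, and 15 passed above CK3 and 12 below it. Without the possible fragment names, 41 such members were left, of which 10 passed above CK1 and 2 below it, and 14 passed above CK3 and 1 below it. Of the 49 with shifted ends, 7 passed above CK1 and 4 below it. These groups were not tested against one another. They differ in abundance, since without miR9774 the 48 substituted names summed to 2652 in T1 and the unchanged names to 15119.

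The first base, which guides the choice of Argonaute protein in plants, had nearly the same makeup in T1 and CK1. Sequences beginning with T made up 22.96% of the summed values in T1, 23.5% in CK1 and 17.3% in CK3, and without miR9774 59.0% in T1, 59.6% in CK1 and 51.3% in CK3. Sequences beginning with C made up 31.2% in T1, 29.7% in CK1 and 34.6% in CK3 without miR9774. The 10 predicted members summed to 71.4 in T1, 127 in CK1 and 37.2 in CK3, with 4 lower and 1 higher than CK1 and 4 higher and none lower than CK3. Over all members 10.3% were lower and 15.8% higher than CK1, and 23.6% were higher and 10.9% lower than CK3. Most of the 10 reached the minimum in CK1 alone, and 2 were listed at 0 in T1 and 6 in CK3.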
